A study of Mus musculus with 40 samples.

Results

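Chemokines, the small secreted proteins that steer migrating cells, and the receptors that read them were followed through the RNA of 4 mouse mammary cell populations. The members were all genes whose mouse symbol is Ccl, Cxcl, Cx3cl, Xcl, Ccr, Cxcr, Cx3cr, Xcr or Ackr followed by a number and at most 1 letter. They came to 57 of the 26132 genes in the count tables, namely 35 ligands, 18 signalling receptors and 4 atypical receptors, and all 57 were listed in both the adult and the pubertal table. Ccl21b, Ccl21c, Ccl26, Ccl27 and Ccl27b also match the rule and were not analysed here. The study asked how gene expression in the mammary gland differs between its cell types, between puberty and adulthood, and between the stages of the estrous cycle. All animals were female wildtype mice of the inbred FVB/N strain, and no transgene or treatment was used. The 8 adult libraries of each population were pools of 2 or 3 mice of 14 to 16 weeks of age, with 2 pools taken in every estrous stage (proestrus, estrus, metestrus and diestrus). The 2 pubertal libraries of each population held pools of 4 mice of 34 to 36 days of age.

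Luminal cells line the ducts and basal cells form the contractile outer layer. These 2 epithelial populations and the stromal cells were sorted on the surface proteins EpCAM and CD49f after cells with the blood or endothelial markers CD45, CD31 or Ter119 had been gated out. The stromal cells, named fibroblasts in the study, were defined by lacking both epithelial proteins and not by a protein of their own. The fat libraries came from the floating layer of the digested glands, which was not sorted, so that no gate removed leukocytes or vessels from them. The lymph node of the #4 gland was taken out before digestion. Within a stage the 2 adult pools were formed as early and late by cytology and histology, or by cell number, so the spread between them may hold time within a stage. The 4 populations of an adult pool came from the same mice. Pubertal and adult libraries were separate sequencing runs, so age and run cannot be told apart.

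Chemokine ligands bind membrane-spanning receptors that signal through Gi proteins to PI3-kinases, Rac and the actin skeleton, and so turn a gradient of ligand into directed movement. CXC ligands such as Cxcl1, Cxcl2, Cxcl3 and Cxcl5 draw neutrophils through Cxcr2, CC ligands such as Ccl2 and Ccl7 draw monocytes through Ccr2, and Ccl11 draws eosinophils through Ccr3. Atypical receptors (Ackr genes) bind chemokines without Gi signalling and clear or carry them. In the mammary gland, macrophages and eosinophils surround the growing end buds in puberty, and leukocyte numbers change over the estrous cycle.

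Promoter sequence is shown for 5 ligands of chromosome 5, since neighbours there differed in the cell type in which they were highest. The sequences are RefSeq's for GRCm38.p6, 5′ to 3′ on the strand of the gene. Of 57 members, 43 had a promoter window in the RefSeq table. Among those missing were the windows of Ccl2, Ccl4, Ccl5, Ccl7, Ccl11, Ccl24, Ccr7, Ccr10, Cxcl5, Cxcl11, Cxcl16, Cxcl17 and Cxcr5. Capitals in the first 3 mark a match to the NF-kB consensus and, in Cxcl3, the TATAAA box as well. In Cxcl15 they mark TATAAA alone, and in Cxcl10 they mark GAAANNGAA, the core of the interferon-stimulated response element, and 2 NF-kB matches. The stretches run from base -120 to base 10 around the start for Cxcl1 (chr5:90891125-90891254, plus strand), Cxcl2 (chr5:90903779-90903908, plus), Cxcl3 (chr5:90785981-90786110, plus) and Cxcl15 (chr5:90794414-90794543, plus), and from -220 to -81 for Cxcl10 (chr5:92348970-92349109, minus).
Cxcl1: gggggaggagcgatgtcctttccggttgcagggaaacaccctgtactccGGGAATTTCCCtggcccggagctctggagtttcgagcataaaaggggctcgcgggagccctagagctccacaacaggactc
Cxcl2: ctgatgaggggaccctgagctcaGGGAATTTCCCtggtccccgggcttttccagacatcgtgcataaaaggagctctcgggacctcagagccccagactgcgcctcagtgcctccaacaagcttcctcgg
Cxcl3: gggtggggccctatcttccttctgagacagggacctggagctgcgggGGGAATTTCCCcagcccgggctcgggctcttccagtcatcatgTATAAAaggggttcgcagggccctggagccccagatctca
Cxcl15: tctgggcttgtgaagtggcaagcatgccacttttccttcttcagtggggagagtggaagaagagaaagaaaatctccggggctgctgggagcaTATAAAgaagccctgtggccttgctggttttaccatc
Cxcl10: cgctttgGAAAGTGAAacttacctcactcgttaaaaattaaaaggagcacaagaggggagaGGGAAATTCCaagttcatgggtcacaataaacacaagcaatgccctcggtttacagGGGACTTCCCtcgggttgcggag

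The motifs were searched on both strands of 32851 promoter windows of the genome, and matches may overlap. The NF-kB consensus was in 4.51% of all windows, and in those of 10 members (Ackr2, Ccl9, Ccl20, Ccl27a, Ccr3, Ccr6, Cxcl1, Cxcl2, Cxcl3 and Cxcl10). GAAANNGAA was in 8.56% of all windows and in those of 8 members, and TATAAA in 13.6% of all windows and in those of 13 members. A match describes the letters of a window and does not show that a factor binds there.

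Counts assigned to genes ranged from 8991222 to 22760563 in the 32 adult libraries and from 11774264 to 19033586 in the 8 pubertal ones. Levels of a gene are given in CPM (a gene's share of all counts of its library, scaled to a fixed total, on library sizes adjusted by TMM over all 40 libraries) and levels of different genes are compared in RPKM, which also divides by exon length. A gene with no count could be present at up to 0.334 CPM in the shallowest library and 0.132 CPM in the deepest, taking 3 counts as the limit for counting error. The summed CPM of the markers listed for a population was highest in the libraries labelled as that population, and none of those markers was at 0 in its own libraries. Markers of other cells were also present. The 10 endothelial markers summed to 1015 to 2709.6 CPM in adult stromal libraries and 568 to 1753 CPM in adult fat libraries, against 19.3 to 57.8 CPM in luminal and 8.84 to 34.3 CPM in basal libraries. The 10 macrophage markers summed to 346 to 850.3 CPM in adult fat libraries and 32.7 to 58.7 CPM in adult stromal ones.

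A few libraries stood apart from the others of their label. The adult stromal libraries proestrus 2 and diestrus 2 had 65.1 and 158 CPM over 6 markers of lymph node stroma (Madcam1, Bst1, Grem1, Tnfsf11, Il7 and Cr2), against 1.17 to 56.3 CPM in the other 8 stromal libraries. The fat libraries diestrus 2 and puberty 2 had 2008 and 1019 CPM over 8 epidermal markers, against 19.5 to 256 CPM in the other 8 fat libraries. Their adipocyte markers summed to 6056 and 5529 CPM, against 12731 to 24995 CPM in the others. Cd207, which marks Langerhans cells, was at 136 and 137 CPM there and at 0.559 to 11.1 CPM in the others. Results that rest on these libraries are given with and without them. The lists of lymph node, Langerhans and venular markers were added after the data were seen.

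Chemokine RNA was highest in stromal cells. The mean adult RPKM summed over the 35 ligands was 5914 in stromal cells, 1048 in basal cells, 851 in the fat fraction and 353 in luminal cells. A single gene made up much of the sum in each population: Cxcl1 gave 32.9% in stromal cells, Cxcl14 74.1% in basal cells, Cxcl15 31.2% in luminal cells and Cxcl1 24.5% in the fat fraction. By mean adult RPKM, 15 ligands were highest in the fat fraction, 14 in stromal cells, 3 in basal cells and 3 in luminal cells. Of the 18 receptors, 17 were highest in the fat fraction and Cxcr4 was highest in stromal cells. Some of the 17 rest on few counts: over 10 fat libraries, Cxcr1 had 1 count and Ccr4 had 12. For others, such as Ccr7, Ccr10 and Cxcr6, fat libraries overlapped with those of another population. The share of all genes highest in each population was not counted. In bulk RNA, more cells of a type and more RNA per cell cannot be told apart, here or below. Since the fat fraction was unsorted, its levels are those of a mixture.

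**Figure D1:**
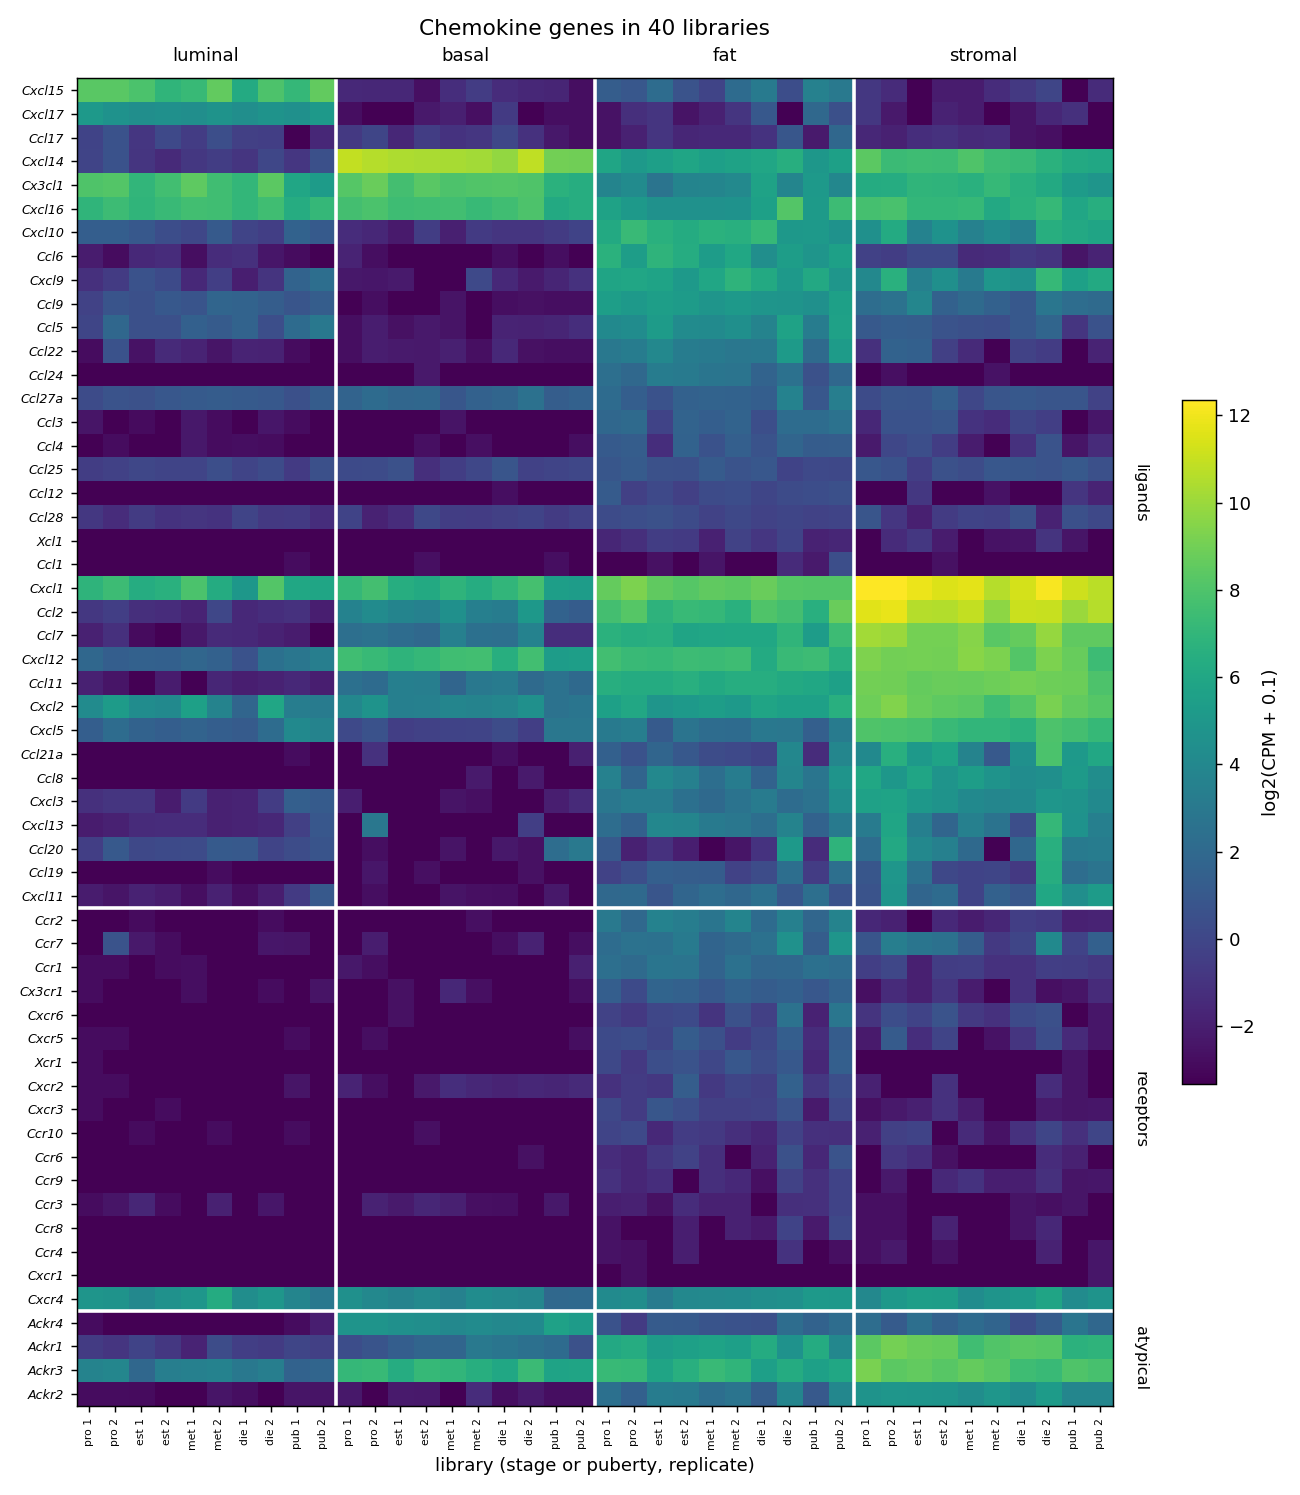
Level of 56 of the 57 chemokine genes (rows, grouped as ligands, receptors and atypical receptors and then by the population with the highest adult mean) in each of the 40 libraries (columns, 10 per population, stage or puberty and replicate below). Colour is log2(CPM + 0.1). Most rows are bright in stromal or fat columns, and few are bright in luminal or basal ones.

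The edgeR quasi-likelihood test was run on the 32 adult libraries over the 15077 genes that exceeded 1 CPM in 2 or more of them, of which 48 were members. A total of 36 of the 48 were higher in the mean of the stromal and fat libraries than in the mean of the epithelial ones, beside 41.5% of all genes tested. The 5 members higher in the epithelium were Ccl17, Cx3cl1, Cxcl15, Cxcl16 and Cxcl17, beside 40.2% of all genes. Among the 24 members with a finite estimate, the median log2 difference between stromal fractions and epithelium was 2.92. The other members had no usable standard error in this contrast, since a stage group had no count. Over all genes, which were not restricted in this way, the median was 0.02, and over all 48 members it was 5.03. A gene is called for 1 population below when it was higher there than in each of the other 3. Stromal cells had 15 such members of 48 (15.7% of all genes), the fat fraction 17 (20.5%), luminal cells 2 (15%) and basal cells 2 (17.7%). The share of members was above that of all genes in stromal cells and in the fat fraction, and below it in both epithelial populations. Ccl12, Ccl20, Ccl24 and Cxcr2 also counted as higher in the stromal fractions with the pool of mice as a block. With that block, Ccl19 was no longer called for stromal cells and Ccr7 was called for the fat fraction. The 9 members below the filter were Ccl1, Ccr3, Ccr4, Ccr6, Ccr8, Ccr9, Ccr10, Cxcr1 and Xcl1.

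The Cxcr2 ligands Cxcl1, Cxcl2, Cxcl3 and Cxcl5, which attract neutrophils, were highest in stromal cells. Ppbp, a chemokine-like ligand outside the symbol rule, was instead called for the fat fraction in the adult and in puberty. Cxcl1 ranked 8 of 24739 genes by mean RPKM in adult stromal cells, at 1947 ± 699 RPKM (SD, n = 8). Its CPM in the stromal libraries was 5176 and 5213 CPM in proestrus, 3734 and 2884 CPM in estrus, 3302 and 1553 CPM in metestrus, 2639 and 4702 CPM in diestrus. The lowest of these was above the highest of the 8 adult fat libraries, which ranged 294 to 622 CPM, median 371. Luminal (31.3 to 283 CPM, median 107) and basal (72.6 to 212 CPM, median 123) libraries lay lower and overlapped. The log2 difference was 3.19 ± 0.34 between stromal and fat libraries (edgeR adjusted p 3.32e-08) and 0.12 ± 0.31 between luminal and basal ones (adjusted p 0.778). Cxcl2, at 196 ± 76.2 RPKM (SD, n = 8) in stromal cells, had the same order of populations, with the fat fraction at 21.9 ± 6.11 RPKM (SD, n = 8). Cxcl5 was at 99.9 ± 33.7 RPKM (SD, n = 8) in stromal cells and 4.90 ± 0.23 above the fat fraction on the log2 scale, adjusted p 1.34e-13. Its stromal libraries ranged 107 to 261 CPM, median 188, and no library of another population was above 11 CPM in the adult. Cxcl3 was lower, at 8.66 ± 4.3 RPKM (SD, n = 8), and also called for stromal cells. Of these 4 genes, Cxcl1, Cxcl2 and Cxcl3 hold the NF-kB consensus shown above, and Cxcl5 had no promoter window. The receptor, Cxcr2, had at most 2.84 CPM in any library, the fat library of diestrus 2.

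Ligands of Ccr2, which attract monocytes, formed the other large stromal group. Ccl2 ranked 9 in adult stromal cells at 1858 ± 804 RPKM (SD, n = 8), and its CPM was 3240.1 and 3615 CPM in proestrus, 1577 and 1513 CPM in estrus, 1905 and 832 CPM in metestrus, 2142 and 2094 CPM in diestrus. Each of these was above all adult fat libraries (99.1 to 301 CPM, median 177). Fat libraries in turn lay above basal ones (9.5 to 32.4 CPM, median 12.8), and luminal cells had a mean of 0.376 ± 0.212 RPKM (SD, n = 8). The stromal level was 3.51 ± 0.25 above the fat level on the log2 scale (adjusted p 8.78e-11). Ccl7, its neighbour on chromosome 11, was at 878 ± 379 RPKM (SD, n = 8) in stromal cells, rank 36, and 3.05 ± 0.23 above the fat fraction (adjusted p 2.21e-10). Ccl8, which lies near them on chromosome 11, followed the same order at 71.8 ± 33.6 RPKM (SD, n = 8). Ccl12, also a Ccr2 ligand, differed from these. It was called for the fat fraction, but only at 0.67 to 2.13 CPM, median 1.03, and it had 11 counts in all 10 stromal libraries and none in luminal ones. Its call was lost without the 2 fat libraries of diestrus.

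Ccl11, the eosinophil attractant eotaxin, was the steadiest of the high ligands. Its 8 adult stromal libraries ranged 393 to 545 CPM, median 477, a coefficient of variation of 10.8%, and its mean was 433 ± 46.8 RPKM (SD, n = 8). The fat libraries ranged 73.3 to 93.8 CPM, median 83.4 with a coefficient of 8.99%, and were -2.49 ± 0.18 from stromal cells on the log2 scale (adjusted p 6.22e-11). For Cxcl1, Ccl2 and Ccl7 in stromal cells, the coefficients were 35.9%, 43.3% and 43.2%. Basal libraries had a few CPM of Ccl11 (3.41 to 10.6 CPM, median 6.44), and luminal cells a mean of 0.108 ± 0.0759 RPKM (SD, n = 8). Ccl24, another eosinophil ligand, was instead called for the fat fraction at 3.13 to 9.38 CPM, median 6.11, with 2 counts over all 10 stromal libraries.

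Cxcl12, the ligand of Cxcr4 that holds stem and immune cells in their niche, was present in 3 of the 4 populations. Its mean was 67.9 ± 16.5 RPKM (SD, n = 8) in stromal cells, 19.2 ± 4.46 RPKM (SD, n = 8) in the fat fraction, 19.1 ± 4.77 RPKM (SD, n = 8) in basal cells and 0.382 ± 0.141 RPKM (SD, n = 8) in luminal cells. Stromal libraries (287 to 749 CPM, median 569) lay above all fat (76.2 to 198 CPM, median 162) and basal (90.3 to 191 CPM, median 166) libraries, and fat and basal libraries overlapped. The log2 difference was 1.82 ± 0.21 between stromal and fat (adjusted p 1.52e-07) and -0.01 ± 0.21 between basal and fat (adjusted p 0.98). In luminal libraries Cxcl12 ranged 1.47 to 5.42 CPM, median 2.83, all below the lowest basal library.

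**Figure D2:**
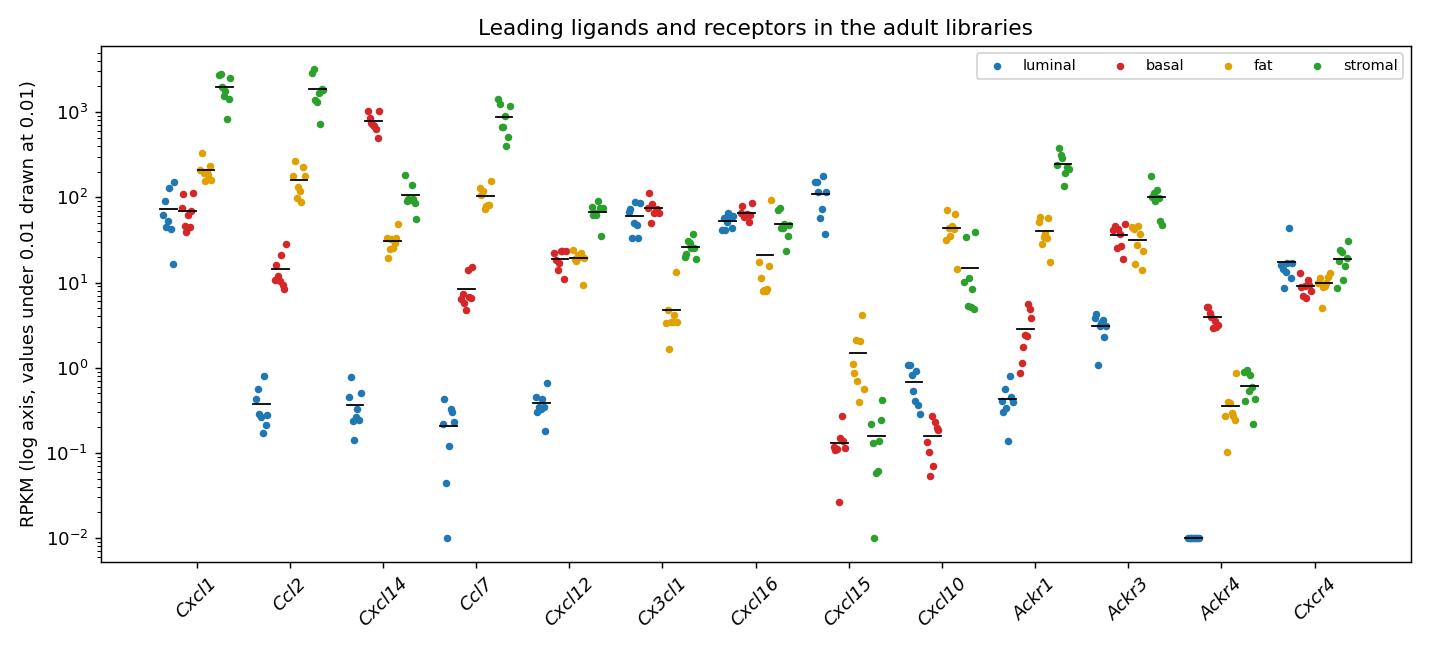
Level in RPKM (log axis) of 13 chemokine genes in the 8 adult libraries of each population, 1 point per library, with a line at the mean. Cxcl1, Ccl2, Ccl7 and Ackr1 are highest in stromal cells with no overlap, Cxcl14 in basal cells and Cxcl15 in luminal cells, while Cx3cl1 and Cxcl16 overlap between luminal and basal cells.

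Ligands of lymphoid tissue had high values in few stromal libraries. Ccl19 and Ccl21a, which guide T cells and dendritic cells through Ccr7, and Cxcl13, which guides B cells through Cxcr5, were highest in the stromal libraries proestrus 2 and diestrus 2. Ccl19 was at 29.4 and 85.7 CPM there, and the other 6 adult stromal libraries lay between 0.518 and 5.77 CPM. Ccl21a was at 93.6 and 244 CPM, against at most 67.1 CPM in the other 8 stromal libraries. Cxcl13 was at 60 and 138 CPM, against at most 25.5 CPM. A total of 12 of the 57 members were higher in both of these libraries than in each of the other 8: Ccl5, Ccl19, Ccl20, Ccl21a, Ccr1, Ccr4, Ccr7, Cxcl2, Cxcl9, Cxcl10, Cxcl13 and Cxcr5. The share of all genes that did so was not counted, so this number is not a result about chemokines. Proestrus 2 and diestrus 2 are the libraries in which the lymph node stroma markers were highest. The lymphocyte and pan-leukocyte markers summed to 26.4 and 64.6 CPM there against 4.48 to 18.8 CPM in the other 8. The part of such tissue in these levels was not tested. Without these 2 libraries, the call of Ccl19 for stromal cells was lost, and Ccl21a and Ccl20 were still called. Reads of Ccl19, Ccl21a and Ccl27a can be shared with near-identical copies, so their levels are uncertain. Ccl20, the ligand of Ccr6, was at 70.1 and 94.5 CPM in the same libraries and at 0 to 16 CPM in the others.

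**Figure D3:**
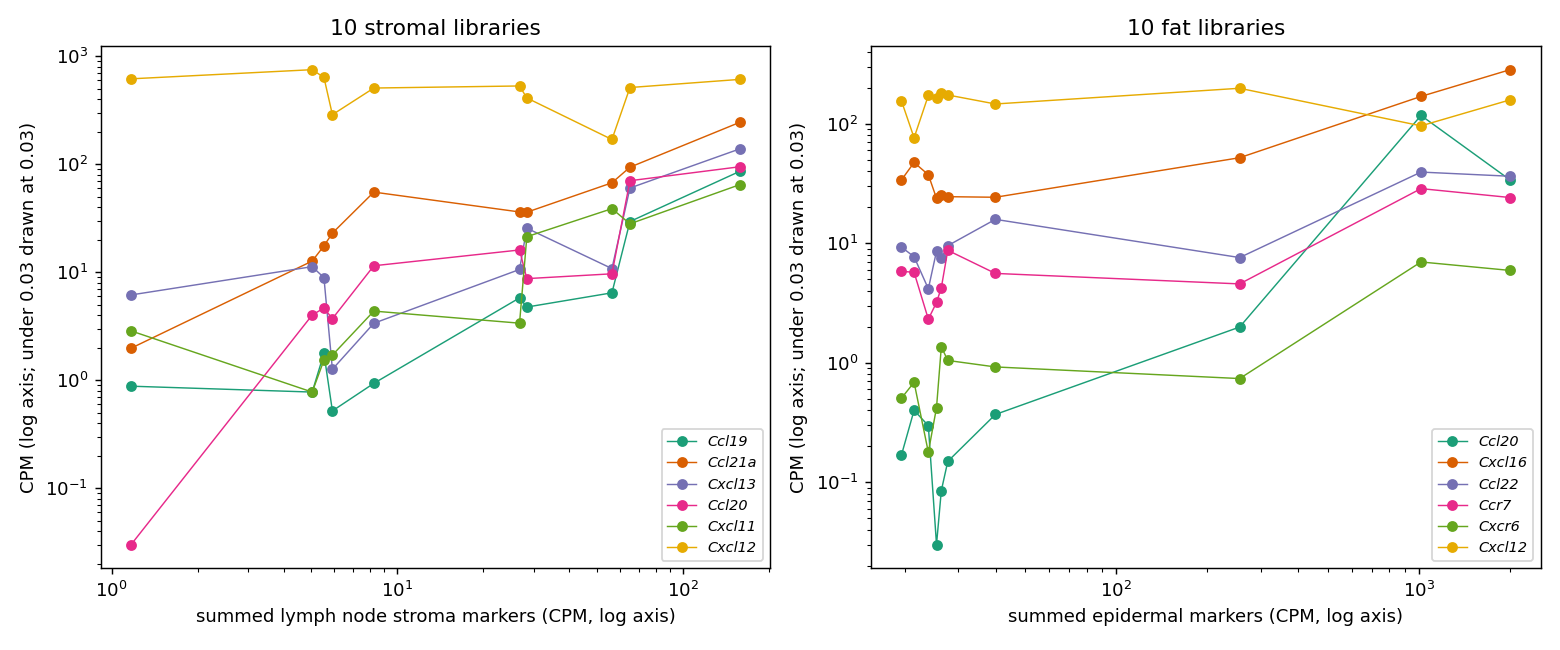
Level in CPM of chemokine genes against the summed CPM of lymph node stroma markers in the 10 stromal libraries (left) and of epidermal markers in the 10 fat libraries (right), 1 point per gene and library, on log axes and joined by a line for each gene. The stromal libraries proestrus 2 and diestrus 2 and the fat libraries diestrus 2 and puberty 2 lie to the right of the others and hold the highest values of Ccl19, Ccl20, Ccl21a and Cxcl13 (left) and of Ccl20, Ccl22, Ccr7, Cxcl16 and Cxcr6 (right). Cxcl12, drawn for comparison, is not highest there in stromal cells or in fat.

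The Cxcr3 ligands Cxcl9, Cxcl10 and Cxcl11, which are induced by interferon and attract activated T cells, were shared by fat and stromal libraries. Cxcl10 was called for the fat fraction, at 32.6 to 160.4 CPM, median 96.4 against 11.1 to 88.7 CPM, median 21 in stromal libraries, a log2 difference of 1.73 ± 0.37 (adjusted p 0.000231). The stromal range was wide, and its 2 highest libraries were again proestrus 2 (77.3 CPM) and diestrus 2 (88.7 CPM). Cxcl9 was at 33.9 to 119 CPM, median 58.7 in fat and 8.52 to 145 CPM, median 23.3 in stromal libraries, which overlapped (adjusted p 0.0848). Cxcl11 stood 1.16 ± 0.55 higher in stromal than in fat libraries on the log2 scale, with adjusted p 0.0619. Without proestrus 2 and diestrus 2 of stromal cells that difference was -0.73, with adjusted p 0.0529. In luminal and basal libraries the 3 genes had adult means of at most 0.689 RPKM.

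Ligands made by macrophages and dendritic cells were found in the fat fraction. Ccl6 and Ccl9, both made by myeloid cells, were at 21.1 to 117 CPM, median 52.6 and 27.3 to 44.7 CPM, median 34.6 in its adult libraries, and Ccl6 was 6.76 ± 0.30 above stromal cells on the log2 scale (adjusted p 3.14e-13). Ccl5, an attractant of T cells and monocytes, was at 12.6 to 52.9 CPM, median 18.8, and Ccl22, which attracts Ccr4-bearing T cells, at 7.46 to 36.3 CPM, median 8.92. Ccl3 (0.797 to 4.55 CPM, median 3.09) and Ccl4 (0.307 to 3.41 CPM, median 2.23), the macrophage inflammatory proteins, were lower. All 6 were called for the fat fraction. The macrophage markers, 10 of 10 above 1 CPM on average, were also highest there, at 346 to 850.3 CPM summed against at most 58.7 CPM in any other adult library, and the part of macrophages in these levels was not tested.

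The epithelium had few chemokines but some of the highest. Cxcl14, which is expressed by many epithelia, ranked 43 in adult basal cells at 777 ± 189 RPKM (SD, n = 8). Its basal CPM was 1904 and 1579 CPM in proestrus, 1371 and 1289.5 CPM in estrus, 1259 and 1163 CPM in metestrus, 913 and 1873 CPM in diestrus. All 8 lay above the stromal libraries (101 to 336 CPM, median 172), which came next, and luminal libraries were at 0.26 to 1.41 CPM, median 0.547. The log2 difference was 2.91 ± 0.20 between basal and stromal cells (adjusted p 2.75e-11) and 11.13 ± 0.29 between basal and luminal cells (adjusted p 1.83e-17). In luminal cells the leading ligand was Cxcl15 (lungkine), known from mouse airway epithelium, at 110.00 ± 50.6 RPKM (SD, n = 8). Its luminal CPM was 323 and 323 CPM in proestrus, 245 and 122 CPM in estrus, 154 and 381 CPM in metestrus, 78 and 247 CPM in diestrus, and the fat libraries, which came next, were at 0.839 to 8.78 CPM, median 2.1. The difference was 6.22 ± 0.40 on the log2 scale (adjusted p 1.06e-11). Cxcl17, a mucosal chemokine, was likewise luminal, at 20.9 to 33.7 CPM, median 24 in luminal libraries and at most 1.88 CPM in the adult libraries of the other 3 populations. These were the only 2 members called for luminal cells, and Cxcl14 and Ackr4 the only 2 called for basal cells. In the fat libraries Cxcl15 and Cxcl17 were both highest, among the adults, in diestrus 1 (8.78 and 1.88 CPM), the library with the highest sum of luminal markers (1793 CPM, against 304 to 540 CPM in the other 7).

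The transmembrane ligands Cx3cl1 and Cxcl16, which also act as adhesion molecules, were shared by luminal and basal cells. Cx3cl1 was at 74.1 ± 17.9 RPKM (SD, n = 8) in basal and 59.6 ± 21.9 RPKM (SD, n = 8) in luminal cells, and its libraries (199 to 439.9 CPM, median 278 and 129.6 to 347 CPM, median 231) overlapped. The difference of 0.33 ± 0.24 (log2, basal minus luminal) had an adjusted p of 0.231. Leaving out 1 pool gave 0.13 to 0.50 with adjusted p from 0.579 to 0.0248, and without diestrus 2 the difference passed and Cx3cl1 was called for basal cells. Stromal libraries (73.4 to 147 CPM, median 99.1) lay below the basal ones and overlapped with the luminal ones, which were higher by 1.19 ± 0.24 (adjusted p 0.000155). Cxcl16 was more even, at 65.9 ± 11 RPKM (SD, n = 8) in basal, 52.6 ± 9.72 RPKM (SD, n = 8) in luminal and 48.4 ± 17.4 RPKM (SD, n = 8) in stromal cells, and none of the 3 pairs differed at the threshold. Basal minus luminal cells gave 0.33 ± 0.24 with adjusted p 0.222. Only the fat fraction was lower, at a median of 29.6 CPM, and there 1 library, diestrus 2, had 283 CPM. Ccl17, a ligand of Ccr4, was near 1 CPM, with 0.467 to 1.41 CPM, median 0.738 in luminal cells.

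The remaining ligands were low in every population. Ccl25, Ccl27a and Ccl28, which direct lymphocytes to epithelia, had adult means of at most 4.01 CPM. Ccl27a was lower in luminal than in basal cells (-0.98 ± 0.27, adjusted p 0.00228). Ccl1 had 32 counts over the 10 fat libraries, 23 of them in puberty 2, and at most 2 counts in the sum of any other population. Xcl1, made by T and NK cells, had 66 counts in fat and 20 in stromal libraries and none in the epithelium.

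Of the signalling receptors, only Cxcr4 had a mean adult level above 1 RPKM in all 4 populations. It gave 98.5% of the receptors' summed RPKM in basal cells, 99% in luminal cells, 81.1% in stromal cells and 46.6% in the fat fraction. Its means were 18.8 ± 7.24 RPKM (SD, n = 8) in stromal cells, 17.6 ± 10.9 RPKM (SD, n = 8) in luminal cells, 9.79 ± 2.36 RPKM (SD, n = 8) in the fat fraction and 9.06 ± 2.06 RPKM (SD, n = 8) in basal cells. Stromal and luminal cells did not differ at the threshold (0.13 ± 0.20 on the log2 scale, adjusted p 0.546, and -0.11 without the stromal libraries proestrus 2 and diestrus 2), nor did fat and basal cells (-0.09 ± 0.20, basal minus fat, adjusted p 0.689). Luminal cells were 0.86 ± 0.20 above basal cells (adjusted p 0.000666). The luminal range of 15.8 to 78.9 CPM, median 27.6 held a single high library, metestrus 2, and the next was at 30.4 CPM. Its ligand Cxcl12 was thus lowest in luminal cells, where Cxcr4 was among the higher values.

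The other signalling receptors had their highest adult mean RPKM in the fat fraction, and each had at most 44 counts over the 10 luminal or the 10 basal libraries. Ccr2, the receptor of Ccl2 and Ccl7 on monocytes, was at 3.8 to 13.6 CPM, median 8.92 in adult fat libraries, with 37 counts over all 10 stromal libraries, 2 over the luminal and 1 over the basal ones. Ccr2 was 5.05 ± 0.38 higher in fat than in stromal cells on the log2 scale (adjusted p 4.56e-09). Ccr1 (3.1 to 6.62 CPM, median 4.7), a receptor of Ccl3, Ccl5 and others, and Cx3cr1 (1.06 to 3.19 CPM, median 2.55), the macrophage receptor of Cx3cl1, were also called for the fat fraction. Cx3cr1 was 3.86 ± 0.48 above stromal cells (adjusted p 7.57e-07) while its ligand was lowest in the fat fraction. Cxcr3 (0.559 to 1.72 CPM, median 0.848), Cxcr5 (0.593 to 2.5 CPM, median 1.13), Cxcr2 (0.368 to 2.84 CPM, median 0.621) and Xcr1 (0.503 to 1.88 CPM, median 1.21), the receptor of cross-presenting dendritic cells, were called at about 1 CPM. Without the 2 fat libraries of diestrus the call of Cxcr2 was lost. Ccr7 had 3.19 to 24.1 CPM in fat and 0.512 to 17.1 CPM in stromal libraries (fat minus stromal 0.55 ± 0.59, adjusted p 0.40). Cxcr6, the receptor of Cxcl16, was at 0.419 to 5.91 CPM, median 0.828 in fat and 0.366 to 1.49 CPM, median 0.919 in stromal libraries (fat minus stromal 0.45 ± 0.47, adjusted p 0.385), and without the pool diestrus 2 of all populations the difference was -0.015, with adjusted p 0.983.

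The remaining receptors had few counts and were not tested between populations. Ccr6 alone among them was tested between ages, with a log2 difference of 1.19 and a standard error of 1.001 in fat (puberty minus adult, edgeR adjusted p 0.41). Over 10 libraries of the fat fraction, Ccr6 had 88 counts, Ccr10 had 80, Ccr9 had 55, and Ccr3 and Ccr8 had 40 each. Ccr4 had 12 counts there and 8 in stromal libraries. Cxcr1 had 1 count in fat and 1 in stromal libraries. In luminal and basal libraries Ccr4, Ccr8, Ccr9 and Cxcr1 had no count at all, which at the depth of these libraries allows up to 0.132 to 0.239 CPM each. In stromal cells, Ccl11 and Ccl2 were high where Ccr3 and Ccr2 had few counts.

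Of the 4 atypical receptors, 3 were called for stromal cells. Ackr1 (the Duffy antigen receptor), known from the endothelium of venules and from red cells, was at 248 ± 76 RPKM (SD, n = 8) in stromal cells. Its stromal CPM was 335 and 529.7 CPM in proestrus, 441 and 407 CPM in estrus, 189 and 271 CPM in metestrus, 321 and 299.6 CPM in diestrus, all above the fat libraries (24.8 to 83.2 CPM, median 51.2), with a log2 difference of 2.63 ± 0.22 (adjusted p 1.19e-09). The venular endothelial markers Selp and Sele summed to 1285 to 3032 CPM in adult stromal libraries, to 222 to 659 CPM in fat libraries and to at most 55.4 CPM in the adult epithelium. They moved with Ackr1, and the part of venular cells in its level was not tested. Ackr3, which takes up Cxcl12, was at 100.05 ± 40.5 RPKM (SD, n = 8) in stromal, 35.8 ± 10.8 RPKM (SD, n = 8) in basal, 31.6 ± 12.9 RPKM (SD, n = 8) in fat and 3.08 ± 1.0 RPKM (SD, n = 8) in luminal libraries. Stromal cells were 1.40 ± 0.21 above basal cells (adjusted p 5.43e-06), and basal cells and the fat fraction did not differ at the threshold (adjusted p 0.248). Ackr3 and Cxcl12 were both highest in stromal cells and lowest in luminal cells. Ackr2, a scavenger of inflammatory CC ligands, was at 19.7 to 38 CPM, median 28.1 in stromal and 2.39 to 13.9 CPM, median 5.86 in fat libraries and had 9 counts over the luminal and 16 over the basal ones.

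Ackr4, which takes up Ccl19, Ccl21 and Ccl25, was the basal one. Its basal CPM was 27.6 and 27.7 CPM in proestrus, 23.6 and 21.1 CPM in estrus, 15.5 and 18.9 CPM in metestrus, 16.1 and 17 CPM in diestrus, and the stromal libraries, which came next, were at 1.18 to 5.13 CPM, median 3.04. The log2 difference was 2.73 ± 0.26 (adjusted p 2.48e-08). Luminal libraries held 4 counts of Ackr4 in all 10.

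In some clusters of neighbouring genes all were highest in the same population, and in others they were not. On chromosome 5, Cxcl5, Cxcl3, Cxcl15, Cxcl1 and Cxcl2 lie within 147 kb in GRCm38 (chr5:90759360-90905938, GENCODE M21). Cxcl15 (chr5:90794534-90803067) was highest in luminal cells, and its 4 neighbours were highest in stromal cells. Its window shows no NF-kB match, as printed above, whereas those of Cxcl1, Cxcl2 and Cxcl3 do, and Cxcl5 had no window. The window of Cxcl10, highest in the fat fraction, also holds matches. A link between the motif and the population was not tested. Cxcl9, Cxcl10 and Cxcl11 lie within 44.1 kb on the same chromosome, the first 2 highest in the fat fraction and Cxcl11 in stromal cells. On chromosome 11 (chr11:82035571-82305690), Ccl2, Ccl7, Ccl11 and Ccl8 were highest in stromal cells, and Ccl12, which lies between Ccl11 and Ccl8, was highest in the fat fraction, as was Ccl1. A second group on chromosome 11 (chr11:83525778-83664683) held Ccl5, Ccl9, Ccl6, Ccl3 and Ccl4, all highest in the fat fraction. On chromosome 9, the neighbouring receptors Ccr9, Cxcr6, Xcr1, Ccr1, Ccr3 and Ccr2 were all highest there too. On chromosome 8, Ccl22 was highest in fat, Cx3cl1 in basal and Ccl17 in luminal libraries.

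**Figure D4:**
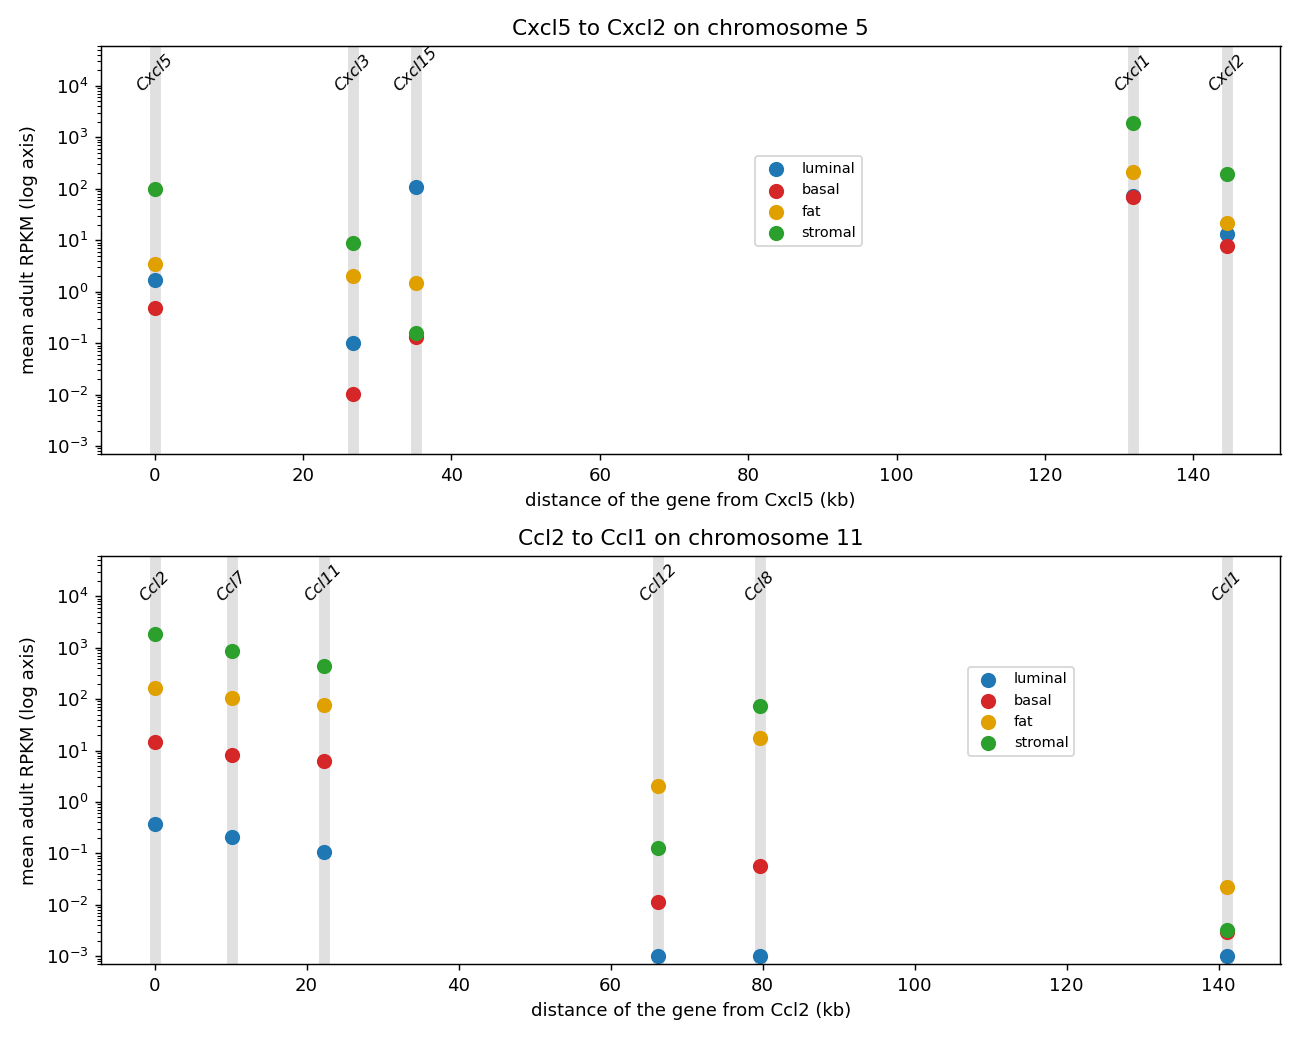
Mean adult level in RPKM (log axis) of neighbouring ligands by population, against the distance of each gene from the first of its cluster in kb (top, Cxcl5 to Cxcl2 on chromosome 5; bottom, Ccl2 to Ccl1 on chromosome 11). Values under 0.001 are drawn at 0.001. Cxcl15 is highest in luminal cells between stromal neighbours, and Ccl12 is highest in the fat fraction between Ccl11 and Ccl8.

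Genes around the chemokines were counted in the same adult fit. Of 26 genes that act downstream of the receptors, 14 were higher in the stromal fractions and 9 in the epithelium, beside 41.5% and 40.2% of all genes tested. Gnai1, a Gi subunit, was 3.49 ± 0.12 and Gng2 3.70 ± 0.14 higher in the stromal fractions on the log2 scale, and Src was -2.53 ± 0.09. Other chemokine-like ligands and modulators were split as well, with 10 of 18 tested higher in the stromal fractions and 8 in the epithelium. The chemerin receptor Cmklr1 was 4.70 ± 0.19 higher in the stromal fractions, and Mif, a macrophage cytokine, was -0.94 ± 0.06. Of 18 NF-kB feedback genes and inflammatory cytokines, 11 were higher in stromal cells than in each other population (15.7% of all genes), and their summed CPM was 8185 to 14084 in adult stromal libraries against at most 3418 in any other adult library. Il6 was 7.81 ± 0.20 higher in the stromal fractions. All 13 interferon targets tested were higher in the stromal fractions, for example Isg15 by 3.72 ± 0.14. Immediate early and dissociation stress genes were higher in stromal cells than in each other population for 8 of 18, with summed CPM of 10602 to 23177 in adult stromal libraries against 6419.9 to 12419 in luminal, 5059.7 to 8615 in basal and 6127 to 10859 in fat libraries. They were highest in the population that led in Cxcl1, Cxcl2 and Ccl2, and their part in those levels was not tested.

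The pubertal libraries gave a similar picture with fewer calls. In the fit of the 8 pubertal libraries, 41 members were among the 14263 genes tested. Luminal cells again had Cxcl15 and Cxcl17 as their called members (2 of 41, beside 6.46% of all genes), and basal cells Cxcl14 and Ackr4 (2, beside 4.01%). The stromal cells had 8 (6.16%), namely Ackr3, Ccl2, Ccl11, Cxcl1, Cxcl2, Cxcl5, Cxcl10 and Cxcl11. The fat fraction had 11 (5.13%), among them Ccl3, Ccl4, Ccl5, Ccl6, Ccl9, Ccl22, Ccl24, Ccr1, Ccr2 and Cx3cr1. Higher in the mean of the stromal fractions were 32 members (27.3%), and higher in the epithelium was Cx3cl1 alone (1, beside 18.9%). Without puberty 2 of the fat fraction, the library high in epidermal markers, 1 member was called for the fat fraction and 14 for stromal cells, among 31 tested. With the replicate number as a block, Cx3cl1 was also called for basal cells, Ccr7 for the fat fraction and Ackr1, Ccl7 and Ccl21a for stromal cells. The fat pool of replicate 2 was taken on a later day than the other 3 populations of that number, so the block joins libraries of different mice there.

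Single genes kept or changed their place in puberty. Cxcl14 was at 526 and 504 CPM in pubertal basal libraries and 72.5 and 65.1 CPM in stromal ones (basal minus stromal 2.83 ± 0.41, adjusted p 0.00109). Cxcl15 was at 136 and 386 CPM in luminal libraries and at 12 and 8.07 CPM in the fat ones. Cxcl10 was called for stromal cells in puberty, at 70.5 and 56.2 CPM against 34.4 and 25.3 CPM in the fat fraction, whereas it was called for the fat fraction in the adult. The pubertal call of Cxcl10 was lost without the fat library puberty 2 and without either pubertal stromal library, and those of Ccl2 and Cxcl11 were also lost without either stromal library. Cxcl16 did not differ between any 2 pubertal populations at the threshold, with adjusted p from 0.498 to 0.979. Cxcr4 was lower in basal libraries (3.78 and 3.93 CPM) than in luminal ones (13.8 and 7.59 CPM) and was highest in fat (34.3 and 33 CPM), where it did not differ from stromal cells (18.9 and 26.6 CPM) at the threshold.

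Few members passed the test between the stages of the estrous cycle, and their number depended on the filter on low counts. With 2 pools a stage, each population was fitted on its own with edgeR. In luminal cells 0 of 19 members passed in any pair of stages (0.309% of all genes) or in any stage against the mean of the other 3 (0.471%), with unadjusted p under 0.05 for 7 and 6 members and with 1 member, Cxcr4, called by DESeq2 in either. In basal cells 0 of 16 passed in pairs (0.0247%) and in stages against the others (1.22%), with 7 and 5 members under an unadjusted 0.05 and 2, Ackr1 and Cxcl1, called by DESeq2 in either. In stromal cells 0 of 34 passed in either (0% and 0% of all genes, none of 13068), with 21 and 19 members under an unadjusted 0.05 and 4 and 3 called by DESeq2. In the fat fraction 0 of 46 passed in pairs (0.0801%), with 14 under an unadjusted 0.05 and 10 called by DESeq2. In a stage against the others 2 passed (11%), with 9 called by DESeq2. The percentages are those of the adjusted edgeR calls. Shares of all genes under an unadjusted 0.05 or called by DESeq2 are not given here. Those numbers of members are therefore not a result about chemokines. With no filter, edgeR called 12 and 11 of 45 members in luminal cells (pairs, then stages against the others, beside 8.83% and 8.17% of all genes). It then called 7 and 6 of 50 in basal cells (10.4% and 9.68%), 23 and 22 of 55 in stromal cells (15.5% and 14.2%) and 0 and 2 of 57 in the fat fraction (1.09% and 6.71%).

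In stromal cells, 3 members that DESeq2 called in a stage against the others did not pass with edgeR. Ccl2 was highest in both proestrus pools (the values are given above) and did not overlap with the other 3 stages. Proestrus minus the others was 1.05 ± 0.28 on the log2 scale (edgeR adjusted p 0.639). Cxcl3 had 49.9 and 54.1 CPM in proestrus and 14.5 to 33.3 CPM in the other 6 libraries, a difference of 1.21 ± 0.22 (adjusted p 0.499). Ackr3 was lowest in diestrus, at 177 and 159 CPM against 306 to 591 CPM elsewhere, with a difference of -1.14 ± 0.25 (adjusted p 0.192).

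The 2 members called in the fat fraction were both higher in diestrus, in 1 of its 2 libraries. Cxcl16 had 47.4 and 283 CPM in diestrus, and 23.7 to 51.9 CPM in the other 6 libraries, so that diestrus 1 lay within their range. The difference of diestrus from the others was 2.45 ± 0.53 (adjusted p 0.0418). Ccl20 had 0.399 and 33.8 CPM in diestrus and 0 to 1.99 CPM elsewhere, a difference of 6.10 ± 1.47 (adjusted p 0.0485). Without diestrus 2, both calls were lost and Cx3cl1 and Cxcl12 passed instead. Without any 1 of the 6 libraries of the other stages, neither passed, and without diestrus 1 the members called were 14. Of the 57 members, 20 were higher in the fat libraries diestrus 2 and puberty 2 than in each of the other 8, Ccl20 and Cxcl16 included. Among the others were Ackr2, Ackr4, Ccl1, Ccl5, Ccl7, Ccl17, Ccl19, Ccl21a, Ccl22, Ccl27a, Ccr6, Ccr7, Ccr8, Ccr9, Cxcr5, Cxcr6 and Xcr1. How many of all genes did so was not counted, so this number is not a result about chemokines. Ccl22 was at 36.3 and 39.4 CPM in the 2 libraries against at most 15.8 CPM, and Ccr7 at 24.1 and 28.6 CPM against at most 8.71 CPM. These libraries hold the epidermal and Langerhans cell markers given above. Their lymph node stroma markers summed to 42.3 and 35.7 CPM, against at most 15.3 CPM in the other 8. Lymphocyte and pan-leukocyte markers summed to 166.1 and 143.7 CPM, against at most 106.6 CPM. Dendritic cell markers summed to 1115.9 and 955.6 CPM, against at most 775.7 CPM. Macrophage markers were not higher in both, nor were those of mast cells and granulocytes. The part of any of these lists in the levels was not tested.

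Between puberty and adulthood, 49 members were tested with edgeR among 15356 genes in all 40 libraries. In luminal cells 6 were higher in puberty (Ccl5, Cxcl3, Cxcl5, Cxcl9, Cxcl11 and Cxcl12, beside 9.03% of all genes) and 3 lower (Ackr3, Cx3cl1 and Cxcr4, beside 4.36%). In basal cells 5 were higher (Ackr4, Ccl20, Ccr1, Cxcl3 and Cxcl5, beside 18.5%) and 9 lower (Ackr3, Ccl2, Ccl7, Cx3cl1, Cxcl1, Cxcl12, Cxcl14, Cxcl16 and Cxcr4, beside 15.8%). In the fat fraction 8 were higher (among them Ackr4, Ccl17, Ccl20, Cxcl15, Cxcl16, Cxcl17 and Cxcr4, beside 14.7%) and Cxcl10 alone was lower (8.76%). In stromal cells Ccl12 alone was higher (12.1%) and 4 were lower (Ackr1, Ccl3, Cx3cl1 and Cxcl14, beside 11.8%). Set against the share of all genes, these counts lay above it by less than 2 genes in luminal cells in both directions, for the losses in basal cells and for the gains in the fat fraction, and below it in the other 4. Over the members with a finite estimate, the median log2 difference was 0.03 in luminal cells, -0.88 in basal cells, 0.25 in the fat fraction and -0.43 in stromal cells. Over all genes, which were not restricted in this way, it was 0.01, 0, 0.12 and -0.12. Over all 49 members it was 0, -0.43, 0.25 and -0.43, in the same order.

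**Figure D5:**
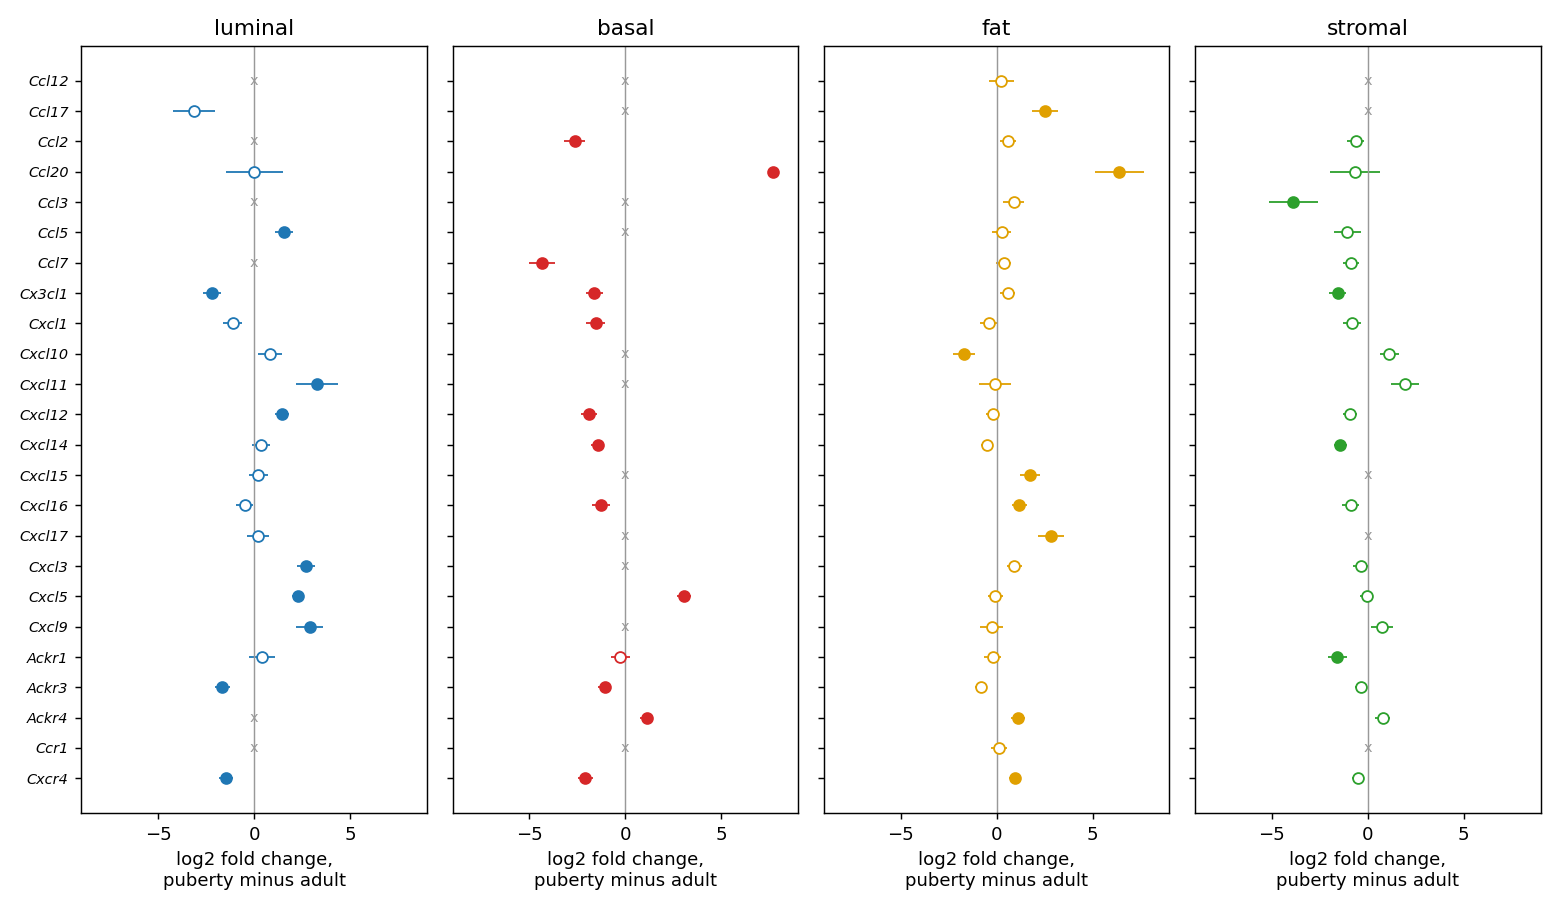
Log2 difference of puberty from adult (point) with its standard error (bar) for 24 of the 25 chemokine genes called in at least 1 population, from the joint edgeR fit. Filled points have an adjusted p under 0.05, a cross marks a gene under 1 CPM in every library of the population, and no bar is drawn where a group at 0 leaves no standard error. Cxcl5 lies to the right in luminal and basal cells, and Cxcr4 lies to the left in both and to the right in fat.

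Cxcl5 was the clearest gain in the pubertal epithelium. Its basal libraries had 7.36 and 7.34 CPM in puberty and 0.656 to 1.45 CPM, median 0.804 in the adult, a log2 difference of 3.04 ± 0.37 (adjusted p 1.03e-06). Luminal libraries had 17.4 and 12.9 CPM against 2.21 to 4.59 CPM, median 2.75 (2.29 ± 0.33, adjusted p 3.36e-05). Neither overlapped with the adult, while the stromal libraries (203 and 146 CPM) lay within the adult range. Cxcl3 moved with it in luminal cells, from 0.13 to 0.597 CPM, median 0.389 in the adult to 2.59 and 2.15 CPM (2.73 ± 0.47, adjusted p 0.000354). Cxcl9 was at 3.05 and 4.98 CPM in pubertal luminal libraries, all adult ones being at or under 1.47 CPM (2.90 ± 0.70, adjusted p 0.00626). Beside it, 9 of 13 interferon targets were higher in pubertal luminal cells (9.03% of all genes), Isg15 by 3.41 ± 0.29, and none was lower. In basal cells Ccl20 had 4.7 and 8.01 CPM in puberty and at most 0.098 CPM in the adult, where it was under the floor, so that no fold is given (adjusted p 0.0017). The epidermal markers summed to 117 and 203 CPM in the pubertal basal libraries against 3.96 to 7.32 CPM in the adult ones, and their part in the level of Ccl20 was not tested. In luminal libraries they summed to 187 and 271 CPM in puberty against 60.3 to 111 CPM. Ccr1 and Cxcl3 passed in basal cells on few reads, with 6 and 13 counts over all 10 libraries.

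Of the 9 members lower in pubertal basal cells, 3 were also lower in luminal cells, namely Ackr3, Cx3cl1 and Cxcr4. Without the luminal library puberty 2 all 3 luminal calls were lost, and without either pubertal basal library Ackr3 and Cx3cl1 no longer passed in basal cells. Cxcr4 was at 3.78 and 3.93 CPM in pubertal basal libraries against 12 to 23.3 CPM, median 16.2 in the adult (-2.08 ± 0.37, adjusted p 0.000151). Luminal cells had 13.8 and 7.59 CPM against 15.8 to 78.9 CPM, median 27.6 (-1.46 ± 0.35, adjusted p 0.00609), and neither population overlapped with its adult libraries. In the fat fraction Cxcr4 was instead higher, at 34.3 and 33 CPM against 9.08 to 23.1 CPM, median 17.9 (0.96 ± 0.29, adjusted p 0.020). Cx3cl1 fell in luminal (62.3 and 38.3 CPM, -2.19 ± 0.45, adjusted p 0.00198), basal (101 and 87.1 CPM, -1.62 ± 0.43, adjusted p 0.00564) and stromal cells (39.4 and 28.5 CPM, -1.56 ± 0.44, adjusted p 0.0114). All 6 of these libraries were below the lowest adult library of their population. Leaving out 1 pubertal library gave -1.82 to -1.35 for Cx3cl1 in stromal cells, and its call there was not kept in every case.

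Basal cells were also lower in ligands that were highest in stromal cells. Ccl7 was at 0.307 and 0.31 CPM in puberty against 3.81 to 12.3 CPM, median 5.35 in the adult (-4.34 ± 0.70, adjusted p 3.78e-05), and Ccl2 at 2.96 and 2.27 CPM against 9.5 to 32.4 CPM, median 12.8 (-2.63 ± 0.55, adjusted p 0.00066). Cxcl12 was at 40.1 and 43.8 CPM against 90.3 to 191 CPM, median 166 in basal cells (-1.88 ± 0.41, adjusted p 0.0010) but rose in luminal cells from 1.47 to 5.42 CPM, median 2.83 to 6.88 and 10.1 CPM (1.44 ± 0.36, adjusted p 0.00958). The difference between the 2 epithelial populations, picked because these calls had opposite signs, was 3.31 on the log2 scale (luminal minus basal, edgeR adjusted p 0.000356). Cxcl14 fell in basal cells (-1.45 ± 0.33, adjusted p 0.00149) and in stromal cells (-1.44 ± 0.33, adjusted p 0.00289). With 1 pubertal library left out, its stromal value was -1.52 to -1.32, and that call was not kept in every case. Immediate early and dissociation stress genes were also lower in puberty, 8 of 18 in luminal, 13 in basal, 2 in fat and 11 in stromal libraries. Of all genes, 4.36%, 15.8%, 8.76% and 11.8% were lower in these populations, in the same order. NF-kB feedback genes and cytokines were lower for 5 of 18 in luminal, 10 in basal, 0 in fat and 5 in stromal libraries, by edgeR, and their part in the chemokine levels was not tested.

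In stromal cells the changes with age were few, and the calls of lower members were lost without the stromal library puberty 2. The fibroblast markers summed to 111098 and 79841 CPM in the pubertal stromal libraries against 19020 to 49978 CPM in the adult ones, and their part in these changes was not tested. Ackr1 was at 109 and 116 CPM in puberty against 189 to 529.7 CPM, median 328 in the adult (-1.59 ± 0.48, adjusted p 0.0191), and the venular markers Selp and Sele summed to 316 and 672 CPM against 1285 to 3032 CPM. Ccl3, with 0 and 0.0945 CPM in puberty, and Ccl12, with 0.439 and 0.189 CPM, passed near the floor. Cxcl1 (2294 and 1687 CPM, -0.82 ± 0.48, adjusted p 0.23), Ccl2 (1004 and 1550.3 CPM, -0.63 ± 0.44, adjusted p 0.326) and Ccl7 (371 and 361 CPM, -0.88 ± 0.42, adjusted p 0.138) did not pass. Without the adult libraries proestrus 2 and diestrus 2, the members higher in pubertal stromal cells were 4, namely Ccl19, Cxcl9, Cxcl10 and Cxcl11, and Ccl12 no longer passed.

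In the fat fraction most calls rested on puberty 2. Without puberty 2 and diestrus 2, 2 members were higher in puberty, Cxcl15 and Cxcl17, and 1, Ccl24, was lower. Ccl20 was at 0.296 and 117 CPM in the 2 pubertal libraries, a log2 difference of 6.40 ± 1.27 (adjusted p 0.000936), which without puberty 2 was -1.20 with adjusted p 0.796. Cxcl17 was at 3.79 and 1.34 CPM in puberty (2.82 ± 0.68, adjusted p 0.00405) and Cxcl15 at 12 and 8.07 CPM (1.74 ± 0.52, adjusted p 0.0177). Leaving out 1 pubertal library gave 1.88 to 3.38 for Cxcl17, and its call was not kept in every case. The luminal markers summed to 1679 and 909 CPM in these libraries against 304 to 1793 CPM in the adult ones. The fibroblast markers lay outside the adult range, at 9401 and 18572 CPM against 3555 to 7018 CPM, and the part of either list in these levels was not tested. Cxcl10 was lower in puberty, at 34.4 and 25.3 CPM against 32.6 to 160.4 CPM, median 96.4 (-1.70 ± 0.59, adjusted p 0.0377), and this also no longer passed without puberty 2. In stromal cells it was at 70.5 and 56.2 CPM in puberty (1.11 ± 0.49, adjusted p 0.104), and the fat minus stromal difference between the 2 age effects was -2.81 ± 0.77 (adjusted p 0.0182).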

How the data were processed

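RNA of 40 libraries was measured by single-end sequencing of stranded, polyA-selected libraries. Per the labels and the study's methods, the authors aligned reads to GRCm38 with TopHat2 2.1 and Bowtie 1.1.0 and counted them per gene with HTSeq. Whether counting used strand was not given in the sources used here, so reads of overlapping antisense genes may be counted with a gene. The deposited values are raw counts per Ensembl gene, in an adult and a pubertal table, and all columns were mapped to samples by name. The tables of normalized values were not used for tests. Symbols, coordinates and exon lengths came from GENCODE M21.

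Counts were tested with edgeR 4.0.16 (R 4.3.3, limma 3.58.1): quasi-likelihood F-tests, TMM scaling, genes that exceeded 1 CPM in 2 or more libraries of the fit, a prior count of 0.125 and Benjamini-Hochberg adjustment within a contrast at 0.05. CPM and RPKM used TMM over all 40 libraries. Total counts of 8991222 to 22760563 per library set the precision, and a gene with no count was given a floor of 3 counts. This floor covers counting error only. A ± marked SD is the standard deviation over libraries, and any other ± is the standard error of the edgeR fit. Both include the spread between pools. The scripts were tested on simulated data.

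The members and lists were chosen with earlier results of these data known. Named with values were the 3 ligands and 3 receptors highest in each population, members called between stages, the 2 with the smallest adjusted p per direction in puberty against adult, and their cognate partners, 25 genes in all. All counts cover the 57 members, of which 1 is not reported here by name or value. All other members valued in the text were chosen after their values were seen. Genes of other lists were the 4 with the smallest adjusted p, apart from Ppbp, which was added after its calls were seen. Alternatives were DESeq2 1.42.0, RLE size factors, no filter, a newer quasi-likelihood method, replicate blocks, joint or separate fits and leaving out libraries. The 4 populations of an adult pool came from the same mice, which pairs them. The deviations of a pool's populations from their group means correlated with r from -0.0208 to 0.229 over genes, with a median of 0.0624 over 24 pairs. The 2 replicates of a group were separate pools of mice, so p-values measure the spread between pools.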

Additional observations from a re-analysis of the deposited data

Results flagged for a closer look

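In 41 groups of 8 adult libraries, 1 library lay far from the others in 8. In the fat fraction these were Cxcl1 at 621.7 CPM in proestrus 2 (next 432 CPM), Ccl12 at 2.13 CPM in proestrus 1 (next 1.19 CPM), and in diestrus 2 Ccl20 at 33.8 CPM (next 1.99 CPM), Cxcl16 at 283 CPM (next 51.9 CPM) and Cxcr6 at 5.91 CPM (next 1.36 CPM). In luminal cells they were Cxcr4 at 78.9 CPM in metestrus 2 (next 30.4 CPM) and Cxcl17 at 33.7 CPM in proestrus 1 (next 26.7 CPM). In stromal cells Cxcl11 was at 64.5 CPM in diestrus 2 (next 28 CPM). The usual rate of about 1 in 20 by chance cannot be set against these 8 groups. The libraries of a group come from different stages of the cycle. Ccl20 and Cxcl16 in the fat fraction were also examined because they were called in diestrus, and Cxcr6 because it is the receptor of Cxcl16.

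The difference between puberty and adult was not the same in all populations for 10 results, each by an edgeR test of the difference between effects. Genes set against the mean of the other 3 populations were those with the smallest adjusted p for age in that population. Genes compared between pairs had been called in opposite directions there. Both choices came from the same data and favoured a difference, so these p-values are not independent support. Against the mean effect in the other 3 populations, the effect on Ccl7 in basal cells differed by -3.97 on the log2 scale (adjusted p 0.0155), on Cxcl5 in basal cells by 2.31 (0.00104), on Cxcr4 in basal cells by -1.74 (0.005), on Cxcl10 in the fat fraction by -2.65 (0.0106), on Cx3cl1 in luminal cells by -1.32 (0.0498) and on Cxcl5 in luminal cells by 1.32 (0.0266). Between pairs of populations, the effect on Cxcl12 differed by 3.31 (luminal minus basal, adjusted p 0.000356), on Cxcl16 by -2.47 (basal minus fat, 0.00564), and on Cxcr4 by -2.41 (luminal minus fat, 0.00103) and -3.03 (basal minus fat, 8.86e-05). Of 49 members tested, the effect of age differed from the mean of the other 3 populations for 4 in luminal cells (20.3% of all genes), 5 in basal cells (15.9%), 9 in the fat fraction (22.1%) and 2 in stromal cells (5.45%), each a smaller share than that of all genes. The effect of diestrus on Cxcl16 in the fat fraction, picked because it was called there, differed from the mean of the other 3 populations. The difference was 2.49 (edgeR adjusted p 0.000544), with the high value of Cxcl16 in diestrus 2 alone.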

How the results depend on the processing

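All 6 counts of adult calls between populations stayed within 1.5 times under every alternative run. Leaving out 1 pool gave 2 to 3 members for luminal, 2 to 3 for basal, 16 to 18 for fat and 13 to 17 for stromal libraries, 31 to 36 for the stromal fractions and 4 to 5 for the epithelium. Of 432 alternative counts 352 stayed within 1.5 times and 80 moved, and of 639 values of single genes 594 kept direction and side of the threshold, 33 lost it, 5 gained it and 7 reversed. The cause of these shifts was not tested, except that leaving out libraries lowers the number of samples.

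In puberty, the epithelium's count of 1 became 2 with no filter, DESeq2, the newer quasi-likelihood method or without the fat library puberty 2. Without that library the fat count of 11 became 1 and the stromal count of 8 became 14. Leaving out 1 pubertal library gave 1 to 2 for the epithelium, 1 to 10 for fat and 5 to 14 for stromal cells. For stages (pairs, then 1 against the others), no filter gave 12 and 11 members in luminal, 7 and 6 in basal and 23 and 22 in stromal cells. DESeq2 gave 1 and 1 in luminal, 2 and 2 in basal, 10 and 9 in fat and 4 and 3 in stromal libraries. No share of all genes is given for these DESeq2 counts. A joint fit of the adults gave 6 and 7 in fat and 1 against the others in stromal cells. With the replicate block or without both fat libraries of diestrus, 0 members passed in fat against the others. The same replicate number is not shown to pair stages, with r from -0.657 to 0.352 and a median of -0.0173. Leaving out 1 library gave 0 to 13 and 0 to 14 in fat, the highest without diestrus 1, and 0 to 1 against the others in luminal cells.

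For puberty against adult, the 8 members higher in fat became 5 with RLE or DESeq2, 1 with separate fits and 2 without puberty 2 and diestrus 2. The 1 lower became 3 with DESeq2, 2 with the newer method, 0 with separate fits and 4 without both fat libraries of diestrus. The 1 higher in stromal cells became 2 with RLE, no filter, the replicate block or without the 2 fat libraries, 0 with DESeq2 or separate fits, 3 without both fat libraries of diestrus and 4 without stromal proestrus 2 and diestrus 2. The 4 lower in stromal cells became 9 without the 2 fat libraries, the 3 lower in luminal cells 5 with DESeq2, and the 5 higher in basal cells 3 with separate fits. Leaving out 1 pubertal library gave 2 to 6 higher and 0 to 4 lower in luminal cells (lowest without luminal 2), 3 to 5 and 5 to 10 in basal cells (lowest without either basal library), 2 to 8 and 0 to 1 in fat (lowest without fat 2) and 0 to 2 and 0 to 5 in stromal cells (lowest without stromal 2).

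The difference reversed for 4 single genes. Without the 2 stromal libraries, the value of Cxcr4, adult stromal minus luminal, was -0.11, and leaving out 1 pool gave -0.0332 (without proestrus 2) to 0.28. The value of Cxcl11, adult stromal minus fat, was -0.73 without the 2 stromal libraries, and -0.11 (without diestrus 2) to 1.59 when 1 pool was left out. The value of Cxcr6, adult fat minus stromal, was -0.0476 without the 2 fat libraries, and -0.015 (without diestrus 2) to 0.76 when 1 pool was left out. The value of Ccl20, fat, puberty minus adult, was -1.20 without puberty 2 and 7.39 without puberty 1. Without metestrus 1, the remaining stromal library of that stage had no Ccl20 count and the difference could not be fitted. Depth limits genes under 0.132 to 0.334 CPM.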
